A study of Mus musculus with 24 samples.

Results

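Wild-type C57BL/6 mice that drank 1% NaCl and were infused with β-aminopropionitrile (BAPN) and angiotensin II were compared with wild-type C57BL/6 mice that had no salt challenge and were infused with vehicle. The comparison takes 6 of the 24 arrays of the series, 3 in each group, chosen by the genotype and treatment that the sample labels give. The salt was in the drinking water before the infusion and through its 3 days, and all mice ate normal chow. The labels give the tissue as aorta, while their extraction text speaks of cells, and they give neither the age of the mice nor any pooling of animals. Replicates are given as biological in the series, and its title sets the question of whether high salt worsens aortic dissection by way of interleukin 17 (IL-17). Each p-value rests on the spread between arrays within groups, estimated over all 24 arrays. Wild-type mice with infusion alone (BAPN and angiotensin II, no salt) or salt alone, 3 arrays in each group, serve for comparison. So do IL-17 knockout C57BL/6 mice with salt plus infusion, with infusion alone or as controls, also 3 arrays in each group. The label of the exposed group names NaCl and BAPN, and angiotensin II stands in the treatment text.

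BAPN blocks the lysyl oxidases, the enzymes that crosslink newly made elastin and collagen. Angiotensin II constricts smooth muscle through its type 1 receptors and raises blood pressure, and given together the agents are used to make the aortic wall of mice dissect. The media of the aorta consists of contractile smooth muscle cells between elastic lamellae, and the adventitia holds fibroblasts and collagen. After injury, smooth muscle cells and fibroblasts can divide, migrate and secrete new matrix, and leukocytes enter the wall.

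RNA was labelled with Cy3 and hybridised to one-colour Agilent arrays, on which 53.7% to 60.2% of the spots were well above background and 0 were saturated. A level here is the log2 signal of a gene relative to the 75th percentile of its array, and a log2 change is the mean level of the 3 salt-plus-infusion arrays minus that of the 3 control arrays. Correlations between arrays over all genes were 0.987 to 0.991 among controls, 0.981 to 0.988 among salt-plus-infusion arrays and 0.951 to 0.975 between the groups. The controls and salt-plus-infusion arrays 1 and 2 came from 1 slide. Salt-plus-infusion array 3 came from another slide, together with the arrays of infusion alone. Values are therefore given array by array, in the order 1, 2 and 3, with control 1 to 3 and exposed 1 to 3 as the names of the arrays. A value in parentheses after a gene is its log2 change.

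Of 23359 genes tested, 3334 were higher (14.3%) and 3244 lower (13.9%) with salt plus infusion (limma, Benjamini-Hochberg adjusted p under 0.05), and the median log2 change of all genes was −0.026. A log2 change of at least 1 was reached by 1297 of the higher and 1135 of the lower genes, and one of at least 2 by 398 and 146. The 2 groups of arrays did not overlap for 3204 of the higher and 3085 of the lower genes. With slide as a fixed block the count was 5127, and within the slide that held both groups it was 5981. It was 4371 without control 1 and 3780 without exposed 3. Calls of 2644 genes, 1473 higher and 1171 lower, were kept under all 17 alternatives other than the strictest filter on dim probes. Of 237 named genes past the threshold, 160 kept the call under every alternative in which they were measured. The strictest filter on dim probes removed some of these, such as Il6 and Spp1, which were judged on the other 17. Of the 237, 0 turned direction and 68 lost the call with at least 1 of the 6 arrays left out. The shares of 14.3% and 13.9% are the background for every count of genes in a group that follows.

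Among the genes of largest rise was Esm1, which encodes an endothelial proteoglycan (probe at mm9 chromosome 13, 114008204 to 114008263). It stood at −0.15, −0.22 and −0.38 in controls and at 5.08, 4.64 and 5.44 with salt plus infusion. The log2 change was 5.30, or 39.5-fold. The genes of largest rise and fall were picked among those whose groups did not overlap. Ska1, which ties kinetochores to spindle microtubules, went from −4.48, −6.53 and −3.56 to 0.67, −0.29 and 1.08 (log2 change 5.34, SE 0.69, adjusted p = 7.32e-05). Only 1 of its controls was well above background, and the change was 2.99 with normexp background correction, which compresses dim signals. All values given with normexp also carry quantile normalisation between arrays. Shcbp1, an adaptor protein of dividing cells, rose by 5.18 and the kinase Melk by 4.90 on the log2 scale, with 2 and 1 of the controls well above background, and by 3.36 and 2.81 with normexp.

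Among secreted proteins outside the cell cycle, Igfbp2, which binds insulin-like growth factors (probe at mm9 chromosome 1, 72898813 to 72898872), stood at 1.18, 1.95 and 2.54 in controls and at 5.31, 5.68 and 5.59 with salt plus infusion. This was a 12.4-fold rise (log2 change 3.63, SE 0.35, adjusted p = 1.54e-05), with all exposed arrays above all controls. Cthrc1, a secreted protein made by cells of injured arteries, rose 24.2-fold, from −2.86, −3.00 and −2.05 to 2.36, 1.03 and 2.49 (log2 change 4.60, SE 0.79, adjusted p = 6.03e-04).

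Another 113 genes were well above background on all 3 exposed arrays and on none of the controls, and for these only a lower bound of the fold can be given. For that bound each control array counts at the signal of the gene or at the dimmest signal called well above background, whichever is higher. The acute inflammatory cytokine Il6 was at least 78.5-fold higher, the matrix protein osteopontin, Spp1, at least 37.7-fold, and the mitotic kinase Cdk1 at least 31.9-fold. The kinetochore protein Nuf2 was at least 21.0-fold higher, the receptor Sirpb1b of myeloid cells at least 20.5-fold, the checkpoint kinase Bub1 at least 15-fold and Mefv, the pyrin inflammasome protein of neutrophils and monocytes, at least 14.5-fold. Bounds here and below hold for the main processing only, and some alternatives gave smaller changes. The lowest log2 changes over the alternatives were 4.54 for Il6, 3.32 for Spp1, 3.23 for Cdk1 and 2.64 for Nuf2. They were 2.61 for Sirpb1b, 2.34 for Bub1 and 2.31 for Mefv.

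Among the genes of largest fall was Adra2a, the α2A-adrenergic receptor (probe at mm9 chromosome 19, 54123363 to 54123422). It stood at 0.93, 1.40 and 0.93 in controls and at −2.97, −3.59 and −2.79 with salt plus infusion. It fell 18.4-fold (log2 change −4.20, SE 0.76, adjusted p = 8.18e-04). Adra2c, the α2C receptor, fell by 2.64 on the log2 scale, or by 1.55 with normexp. Upb1, an enzyme of pyrimidine breakdown, went from 1.93, 1.80 and 1.92 to −1.21, −1.44 and −0.68 (log2 change −2.99, SE 0.35, adjusted p = 4.48e-05). Inmt, a methyltransferase of indole amines, went from 4.93, 5.30 and 5.10 to 0.00, 0.48 and 0.44, a 27.9-fold fall.

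Tcap, the titin cap protein of striated muscle, went from 7.37, 7.40 and 7.57 to 4.85, 5.34 and 1.46, with array 3 far below arrays 1 and 2 (log2 change −3.56, adjusted p = 0.00983). Mybpc2, a myosin-binding protein of fast skeletal muscle, fell by 2.86 and Capn3, a muscle calpain, by 2.71 on the log2 scale. A list of 13 cardiac and skeletal muscle markers had 1 member higher, the myosin light chain Myl4 (log2 change 0.53), and 0 lower, with a median of −0.11. Its part in these falls was not tested. Among 120 genes well above background on all controls and no exposed array, Smim6, a small membrane protein, fell at least 7.41-fold, Fn3k, which repairs glycated proteins, at least 5.73-fold and the lipoprotein enzyme Pon1 at least 3.88-fold. Left-out arrays ended the calls of Tcap (−2.35 without exposed 3), Myl4 (0.41 to 0.48 without control 2 or exposed 1 or 3) and Pon1 (without control 3 or exposed 3).

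**Figure D1:**
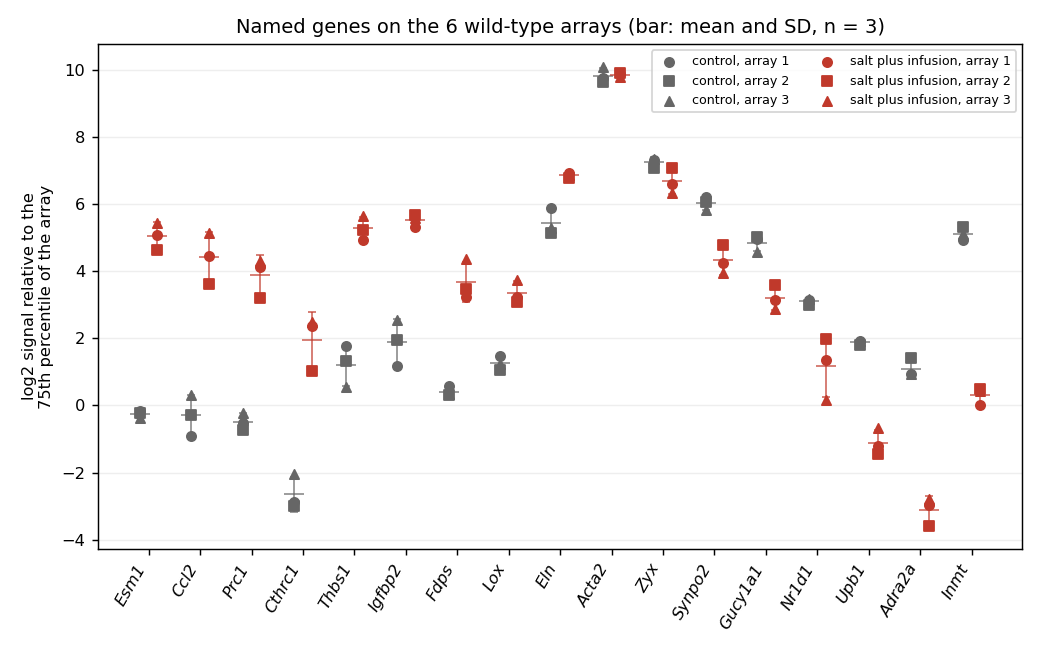
Levels of 17 genes on the 6 arrays, as log2 signal relative to the 75th percentile of the array; points are arrays of the control group (grey) and of the salt-plus-infusion group (red), and bars give the mean and SD of 3 arrays. Esm1, Prc1 and Fdps lie higher on all 3 exposed arrays, Inmt, Upb1 and Adra2a lower, and the groups overlap for Acta2.

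Of 54 measured genes of mitosis and the spindle, 52 rose and 1 fell, with a median log2 change of 3.92, or 3.66 with the 11 members that were dim in controls at their bound. The median member stood 4.15, 3.16 and 4.42 above the control mean on the exposed arrays, against −0.11, −0.24 and 0.35 on the controls themselves. Prc1, which bundles microtubules between the separating chromosomes, went from −0.52, −0.73 and −0.21 to 4.13, 3.21 and 4.30, and array 2 was the lowest of the exposed arrays here as over the list. Its change was 4.37 (SE 0.50, adjusted p = 4.48e-05). Pttg1, the securin that holds sister chromatids together, fell by 0.76, from 4.82, 5.14 and 4.94 to 4.12, 4.13 and 4.37, and Cenpf (1.20, adjusted p = 0.15) was the 1 member that did not pass.

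Kif18b, a kinesin that shortens spindle microtubules, Prc1 and Ska3, a partner of Ska1, are the list members whose promoters are shown here, because members of the list moved together. Each line gives the 250 bases before the start of the gene from RefSeq (GRCm38.p6, 5′ to 3′ on the strand of the gene), with matches to the CCAAT box (CCAAT) or the cell cycle homology region (CHR, TTTGAA) on either strand in capitals. Kif18b lies on the minus strand at chr11:102925125-102925374, Prc1 on the plus strand at chr7:80294201-80294450 (1 of 2 starts given for it) and Ska3 on the minus strand at chr14:57826164-57826413.
Kif18b: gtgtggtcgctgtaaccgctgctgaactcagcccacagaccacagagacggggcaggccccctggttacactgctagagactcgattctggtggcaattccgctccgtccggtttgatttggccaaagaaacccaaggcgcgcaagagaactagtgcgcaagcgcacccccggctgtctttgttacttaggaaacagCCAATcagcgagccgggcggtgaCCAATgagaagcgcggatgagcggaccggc
Prc1: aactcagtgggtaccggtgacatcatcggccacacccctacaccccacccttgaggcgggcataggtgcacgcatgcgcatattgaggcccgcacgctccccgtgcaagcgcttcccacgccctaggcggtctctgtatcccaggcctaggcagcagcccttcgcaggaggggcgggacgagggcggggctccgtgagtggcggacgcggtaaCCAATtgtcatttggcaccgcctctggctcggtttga
Ska3: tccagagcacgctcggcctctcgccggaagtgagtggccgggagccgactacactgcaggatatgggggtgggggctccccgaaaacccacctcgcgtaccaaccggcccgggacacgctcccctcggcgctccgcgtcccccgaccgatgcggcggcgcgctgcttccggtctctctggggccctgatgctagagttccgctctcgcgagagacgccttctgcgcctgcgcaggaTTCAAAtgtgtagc
Of the 46 members with a RefSeq promoter, 17 held a CHR and 32 a CCAAT box in this window, against 18.3% and 37.5% of the 26994 genes in the table. The Kif18b window held 2 CCAAT boxes, that of Prc1 held 1, and that of Ska3 held 1 CHR and no CCAAT. A match is a stretch of letters and shows no binding.

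DNA replication genes rose as well, 41 of 50 higher and 0 lower, with a median log2 change of 1.46. Mcm5, a subunit of the replicative helicase, went from −0.79, −0.81 and −0.54 to 2.03, 1.26 and 2.70 (log2 change 2.71, SE 0.33, adjusted p = 5.34e-05). Tk1, a thymidine kinase of S phase, rose 17.1-fold and Asf1b, a histone chaperone, 13.4-fold. Array 2 was again the lowest of the exposed arrays, with a list median of 0.96 against 1.55 and 1.97. Among 29 genes of G1 cyclins, cyclin-dependent kinase inhibitors and p53 targets, 14 were higher and 6 lower. The count of higher genes was 9 without control 1 and 6 without exposed 3. In bulk tissue, more cells of a kind and more RNA per cell cannot be told apart.

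A list of cholesterol synthesis, uptake and export genes was mostly higher in the exposed wild-type aorta. Cells make cholesterol from acetyl-CoA through mevalonate and squalene, and the genes of the route are switched on together by the transcription factor SREBP2 when membrane sterol is low. Of 23 measured genes 18 were higher and 0 lower, with a median log2 change of 1.25, and the list stood at 1.23, 1.17 and 1.40 on the exposed arrays against 0.17, 0.03 and −0.10 on the controls. Fdps, which makes farnesyl diphosphate (probe at mm9 chromosome 3, 88897549 to 88897608), went from 0.57, 0.31 and 0.33 to 3.22, 3.47 and 4.35. The exposed arrays were all above the controls and array 3 was the highest, a 9.71-fold rise (log2 change 3.28, SE 0.45, adjusted p = 1.24e-04).

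Further along the route, Cyp51, which removes a methyl group from lanosterol, went from −2.02, −2.07 and −2.45 to −0.05, −0.10 and 0.37, with no overlap between the groups (log2 change 2.25). Lss, which closes the sterol rings, rose by 1.57, Mvd, which makes the isoprene unit from mevalonate, by 1.56 and the desaturase Sc5d by 1.45. Stard4, which carries cholesterol between membranes, went from 0.43, 0.21 and −0.05 to 1.56, 1.37 and 1.24 (log2 change 1.20, SE 0.18, adjusted p = 1.87e-04). Hmgcs1, chosen for its place at the entry of the route after its values were seen, rose by 1.36. The 5 members that did not pass were Srebf2 itself (0.67), Insig1 (0.54), Dhcr7 (0.42), Srebf1 (0.27) and the cholesterol exporter Abca1 (−0.30). The other exporter of the list, Abcg1, was among the higher genes. The count of higher genes was 16 or 17 with any 1 array left out. With slide as a fixed block Abca1 passed as lower (−0.48, adjusted p = 0.0238), as it did within 1 slide, where Srebf2 (0.73, adjusted p = 0.0234) and Insig1 (0.66) passed as higher. Srebf2 also passed with the mean of its probes (0.92) and when other groups were left out of the fit.

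Genes of the unfolded protein response, which adds chaperones and lipids when proteins back up in the endoplasmic reticulum, had 20 of 30 members higher and 0 lower, with a median of 0.71. Asns, which makes asparagine, stood at 0.01, −0.01 and 0.30 in controls and at 2.74, 2.31 and 3.57 with salt plus infusion (log2 change 2.77), all exposed arrays lying above all controls. Sdf2l1, a chaperone partner, rose by 1.58, Fkbp10, a collagen-folding isomerase, by 1.10 and P4hb, protein disulfide isomerase, by 0.99. Ddit3 (−0.41) and Trib3 (−0.26), which mark prolonged stress, did not pass.

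Genes of the secretory pathway had 25 of 34 members higher and 1 lower, with a median of 0.73 and array medians of 0.72, 0.45 and 0.96. Rpn1, a subunit of the enzyme that attaches N-glycans, went from 5.55, 5.55 and 5.49 to 6.30, 6.20 and 6.68 (log2 change 0.87, SE 0.14, adjusted p = 2.89e-04). Sec61b (1.01), Sec61g (0.87) and Sec61a1 (0.81), the subunits of the channel into the endoplasmic reticulum, rose together with Tmed3 (0.74) and Surf4 (0.85), which sort cargo for export. Srp54a, a part of the signal recognition particle, was the member that fell (−0.58). Without exposed 3 the count of higher genes was 14. Without 1 array, the call of Srp54a (−0.44 without exposed 1) was lost.

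Promoters of 6 genes of the sterol and folding groups are shown because members of each group moved together. Capitals mark the CCAAT box, or the endoplasmic reticulum stress element (ERSE, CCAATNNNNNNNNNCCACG, which contains a CCAAT), on either strand. Sc5d, Mvd and Cyp51 are of the sterol route and Sdf2l1, Asns and Hspa5 of the folding list. Hspa5, the main chaperone of the compartment, went from 6.03, 6.04 and 5.66 to 6.66, 6.95 and 7.33 (log2 change 1.07). The windows, again 250 bases before the start in RefSeq, GRCm38.p6, lie on the minus strand at chr9:42264301-42264550 (Sc5d), chr8:122443423-122443672 (Mvd), chr5:4104698-4104947 (Cyp51), chr16:17132384-17132633 (Sdf2l1) and chr6:7693210-7693459 (Asns) and on the plus strand at chr2:34771840-34772089 (Hspa5).
Sc5d: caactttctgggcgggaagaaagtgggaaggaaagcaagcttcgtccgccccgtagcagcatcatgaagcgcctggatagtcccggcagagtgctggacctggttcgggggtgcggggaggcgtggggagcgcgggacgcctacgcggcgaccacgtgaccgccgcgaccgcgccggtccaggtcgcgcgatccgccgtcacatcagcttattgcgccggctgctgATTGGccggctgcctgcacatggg
Mvd: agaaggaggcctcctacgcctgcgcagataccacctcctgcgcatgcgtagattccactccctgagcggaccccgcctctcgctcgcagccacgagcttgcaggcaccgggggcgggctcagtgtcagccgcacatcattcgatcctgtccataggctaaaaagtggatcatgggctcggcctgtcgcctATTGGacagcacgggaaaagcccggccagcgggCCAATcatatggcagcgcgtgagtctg
Cyp51: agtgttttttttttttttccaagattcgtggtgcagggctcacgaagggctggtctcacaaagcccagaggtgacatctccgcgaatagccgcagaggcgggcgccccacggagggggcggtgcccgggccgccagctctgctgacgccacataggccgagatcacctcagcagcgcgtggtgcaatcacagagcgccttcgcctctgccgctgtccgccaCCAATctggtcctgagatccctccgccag
Sdf2l1: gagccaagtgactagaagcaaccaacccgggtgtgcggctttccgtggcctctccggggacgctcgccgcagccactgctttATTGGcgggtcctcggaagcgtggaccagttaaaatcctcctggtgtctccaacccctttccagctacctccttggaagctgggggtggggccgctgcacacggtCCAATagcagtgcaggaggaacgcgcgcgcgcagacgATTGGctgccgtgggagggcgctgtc
Asns: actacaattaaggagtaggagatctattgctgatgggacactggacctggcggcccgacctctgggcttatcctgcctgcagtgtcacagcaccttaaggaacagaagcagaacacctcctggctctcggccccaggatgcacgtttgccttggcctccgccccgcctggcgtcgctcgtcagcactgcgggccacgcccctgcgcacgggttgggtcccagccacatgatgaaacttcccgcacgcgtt
Hspa5: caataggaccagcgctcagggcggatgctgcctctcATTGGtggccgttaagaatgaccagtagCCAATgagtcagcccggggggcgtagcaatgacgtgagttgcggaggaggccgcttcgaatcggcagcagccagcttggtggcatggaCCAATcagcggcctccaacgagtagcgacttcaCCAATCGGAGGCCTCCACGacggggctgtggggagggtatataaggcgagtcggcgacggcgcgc
The Hspa5 window held 1 ERSE and 4 CCAAT boxes, that of Sdf2l1 held 3 CCAAT boxes and no ERSE, and that of Asns held neither. An ERSE stood in 8 of 27 members of the folding list with a RefSeq promoter, against 0.13% of all genes in the table. Of 14 sterol members 13 held a CCAAT box, against 37.5% of all genes, and 1 held the sterol regulatory element (TCACNCCAC, either strand), against 1.23%. None of the 3 sterol windows shown held that element in these letters.

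**Figure D2:**
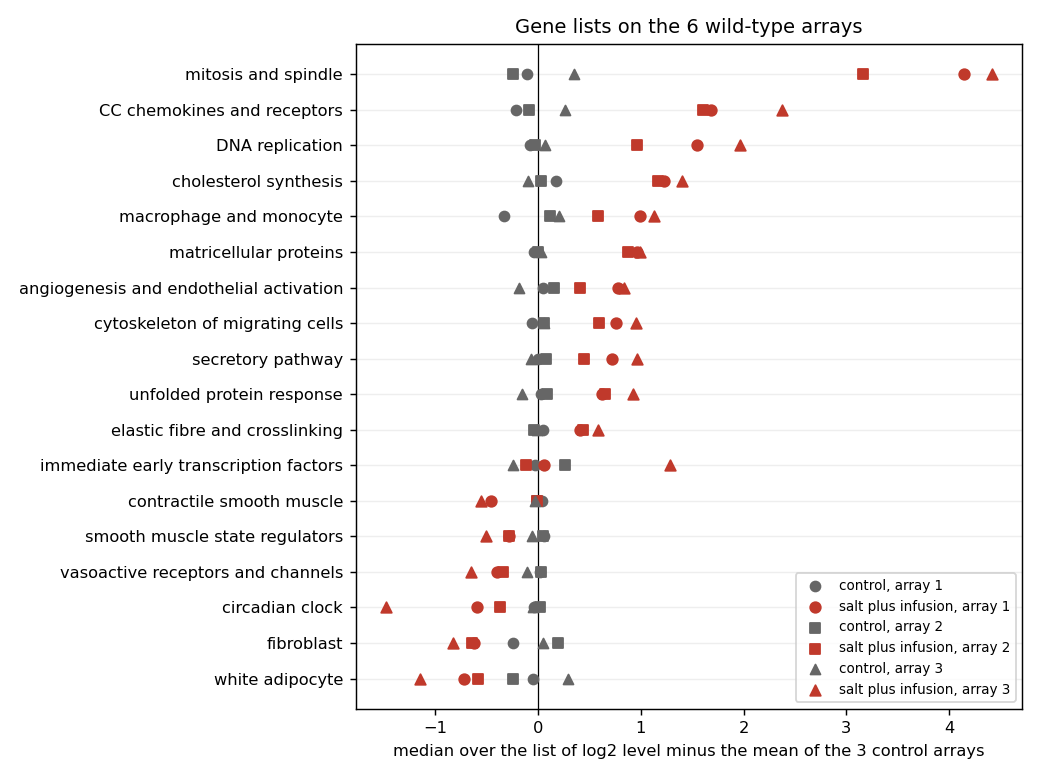
Median over the genes of each of 18 lists of the log2 level minus the mean of the 3 control arrays, on each of the 6 arrays; grey marks control and red marks salt-plus-infusion arrays, and circle, square and triangle mark arrays 1, 2 and 3. The mitosis list lies at 4.15, 3.16 and 4.42 and the cholesterol list at 1.23, 1.17 and 1.40 on the exposed arrays, while the contractile list lies at −0.46, −0.01 and −0.56.

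In the extracellular matrix, genes of the elastic fibre and of crosslinking rose, 14 of 27 higher and 2 lower, with a median of 0.67. Lox, the main lysyl oxidase and a target of BAPN, stood at 1.47, 1.05 and 1.25 in controls and at 3.23, 3.07 and 3.74 with salt plus infusion. It rose 4.26-fold (log2 change 2.09, SE 0.32, adjusted p = 2.26e-04), and the groups did not overlap. Its relatives Loxl2 and Loxl4 also passed, Loxl2 by 1.49, and so did the collagen lysyl hydroxylase Plod2 (1.31) and the fibrillin Fbn1 (0.84). Eln, which encodes elastin, went from 5.87, 5.13 and 5.28 to 6.92, 6.78 and 6.87 (log2 change 1.42). The members that fell were Ltbp4, which helps elastin assemble (−1.28), and the fibulin Efemp1 (−0.69). Sensitive to 1 array was the call of Efemp1 (−0.73 to −0.51 without control 2 or 3 or exposed 1 or 3).

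Fibrillar and associated collagens had 9 of 23 members higher and 2 lower and a median of only 0.09, so the rises were carried by few genes. Col12a1, which coats collagen fibrils, went from −1.11, −1.27 and −0.88 to 1.17, 1.61 and 1.28 (log2 change 2.44, SE 0.25, adjusted p = 2.58e-05), with every exposed array above every control. Col8a1, a short-chain collagen of vessels, rose by 3.96 and Col11a1, a minor fibril collagen, at least 2.34-fold, against log2 changes of 0.70 for Col1a1 and 0.44 for Col3a1, the main fibril collagens. With normexp the calls of Col11a1 and Col6a6 were lost, and so was that of Col3a1 (0.19, and 0.18 with quantile normalisation and the authors' values). Pcolce2, which helps trim procollagen (−0.52), and Col6a6, a chain of beaded filaments, fell. Matricellular proteins, which sit in the matrix and signal to cells, had 11 of 20 higher and a median of 0.87, with Thbs1 (4.06), Thbs4 (2.93), Ccn4 (2.45) and Tnc (2.10) among them. The 2 that fell were Tnxb (−1.31) and Sparcl1 (−1.10). The calls of Pcolce2 (−0.57 to −0.44 without control 1, 2 or 3 or exposed 1 or 2), Tnxb (−1.16 to −1.08 without control 3 or exposed 3) and Sparcl1 (−1.0 to −0.92 without control 1 or 2 or exposed 1 or 3) were lost with 1 array left out.

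Of 35 matrix proteases 9 were higher and 3 lower, with a median of 0.30. Mmp3, stromelysin 1, went from 3.00, 3.19 and 2.65 to 4.44, 4.17 and 4.62 (log2 change 1.46, SE 0.22, adjusted p = 2.09e-04), and Mmp19 (1.93), Adam12 (1.80) and Adam9 (0.78) passed too. Adamts15 (−2.01), Adamts10 (−0.71) and Mmp9, gelatinase B (at least 1.72-fold), fell. Timp1, an inhibitor of metalloproteinases, went from 2.98, 3.40 and 3.55 to 7.22, 5.99 and 7.86, a 13.1-fold rise with no overlap (log2 change 3.71, SE 0.52, adjusted p = 1.37e-04), while its relative Timp4 fell (−2.27). Serpinf1, an antiangiogenic serpin, was the other inhibitor that fell (−0.93), against 7 of 17 higher. The call lost when 1 array was left out was that of Adamts10 (−0.66 to −0.46 without control 1 or 3 or exposed 3).

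Clotting and fibrinolysis genes had 9 of 17 members higher and 1 lower, with a median of 0.82, or 0.61 with the dim member at its bound. Plau, urokinase, rose from −4.65, −3.56 and −4.21 to −1.05, −1.26 and −0.17, and every exposed array lay above every control. Only 1 of the 3 controls was well above background, and the log2 change was 3.31, or 1.69 with normexp. The thrombin receptor F2r rose by 0.82. Gas6, a vitamin K-dependent ligand of TAM receptors, fell (−0.84). Of 24 proteoglycan and hyaluronan genes 6 were higher, among them Acan, aggrecan (2.19), and Has1, a hyaluronan synthase (3.41). The 5 that fell were Fmod (−1.46), Prelp (−1.36), Hyal1 (−1.19), Gpc6 (−0.91) and Gpc3 (−0.88). Leaving out single arrays ended the calls of Fmod (−1.45 to −1.11 without control 1 or 2 or exposed 3), Prelp (−1.06 without exposed 1), Hyal1 (−0.97 without exposed 3) and Gpc6 (−1.01 to −0.70 without control 1 or 2 or exposed 1 or 3). Left-out arrays ended the call of Gpc3 (−0.67 without exposed 3).

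CC chemokines and their receptors, which steer monocytes and lymphocytes, had 12 of 21 members higher and 4 lower, with a median of 2.03. Ccl2 and Ccl7, which draw monocytes through CCR2, rose 25.9-fold and 18.1-fold. Ccl7 went from −1.0, −0.79 and 0.22 to 3.76, 2.88 and 4.34 (adjusted p = 1.54e-04), and array 2 was the lowest exposed array. The members that fell were Ccl11, which draws eosinophils (−1.76, from 0.06, 0.98 and 1.12 to −0.95, −1.49 and −0.67), Ccl24 (−1.56), the chemerin-binding receptor Ccrl2 (−1.31) and Ccl27a (−1.08). Ccl24 draws eosinophils as well.

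The IL-6 family had 8 of 20 members higher and 5 lower. The ligands Il11 (2.08) and Clcf1 (1.36) and the feedback inhibitor Socs3 (1.52) rose, while the shared receptor chain Il6st (−0.33) and the kinase Jak2 (−0.30) fell, together with Lifr, Il11ra1 and Socs1 (−1.05). With the mean of its probes Lifr did not pass (−0.21). Without exposed 3 these counts were 4 and 3, and without control 1 or 2 they were 6 and 3. Of 30 genes of interleukin 1, tumour necrosis factor and NF-κB signalling 14 were higher and 0 lower, or 9 without control 1. Ptgs2, the inducible cyclooxygenase, rose 16.7-fold, from −0.89, 0.15 and −1.44 to 3.33, 1.87 and 4.79, with array 2 the lowest exposed array and still above all controls. Without 1 array, the calls of Il11 (1.79 without exposed 3), Socs3 (1.21 to 1.68 without control 1, 2 or 3 or exposed 1 or 3), Il6st (−0.38 to −0.26 without control 1 or 2 or exposed 1 or 3) and Jak2 (−0.29 to −0.23 without control 1 or 2 or exposed 1 or 3) were lost.

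IL-17 itself could not be read. The 1 probe for Il17a and the 1 probe for Il17f passed the background call on 0 of 24 arrays, so no fold is given for either. Among 11 genes for IL-17 relatives, their receptors and Th17 cells, 1 was higher, the family member Il17b (0.71), and 1 lower, the inhibitory receptor Il17rd (−0.60). Il17b stood at −0.38, −0.27 and −0.63 in controls and at −0.03, 0.29 and 0.57 with salt plus infusion, without overlap. The receptor chain Il17ra went from −4.38, −3.91 and −3.59 to −2.91, −3.25 and −2.82 (0.97, adjusted p = 0.205, with 2 controls well above background), and its partner Il17rc did not pass either (−0.04, adjusted p = 0.79). Of 22 genes that cells make in response to IL-17, 7 were higher and 1 lower, Mmp9, with a median of 0.94. The 7 hold genes named above for other roles, Il6, Ccl2, Ccl7, Ptgs2 and Mmp3, so the list is not separate from those groups. Sensitive to 1 array were the calls of Il17b (0.56 to 0.60 without control 3 or exposed 3) and Il17rd (−0.56 to −0.45 without control 1 or 2 or exposed 3).

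Interferon response genes had 10 of 33 members higher and 1 lower, the lower being Ifi35 (−0.38), with a median of 0.56. The exposed arrays spread from 0.14 on array 3 to 0.96 on array 2, and 6 members were higher without control 1. Oasl1, an antiviral protein, went from −2.34, −1.45 and −1.33 to 0.01, −0.44 and 0.34, with no overlap (log2 change 1.68). Complement genes had 4 of 18 higher and 6 lower. The 4 were Cfi (at least 5.28-fold), which cleaves C3b, the anaphylatoxin receptors C5ar1 and C3ar1 and properdin, Cfp (1.00). C7, a part of the membrane attack complex, fell 5.07-fold and C1ra, a protease of the classical pathway, 1.99-fold, and without exposed 3 the counts were 2 and 4. The calls of Ifi35 (−0.34 to −0.27 without control 2 or exposed 3), C3ar1 (1.26 without exposed 3) and Cfp (0.83 to 1.00 without control 1 or 2 or exposed 1 or 3) were lost with 1 array left out.

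The contractile apparatus of smooth muscle changed in few of its genes. Of 26 contractile genes 0 were higher and 3 lower, with a median of −0.40 and array medians of −0.46, −0.01 and −0.56. Acta2, smooth muscle actin, stood at 9.75, 9.63 and 10.08 in controls and at 9.86, 9.91 and 9.77 with salt plus infusion, so its groups overlapped (log2 change 0.03, adjusted p = 0.887). The 3 lower genes were Synpo2, an actin bundler that went from 6.21, 6.07 and 5.81 to 4.24, 4.79 and 3.94 (−1.71, SE 0.38, adjusted p = 3.25e-03), the integrin chain Itga8 (−0.70) and the adherens protein Pgm5 (−0.56). Without exposed 2 the count was 7, and it was 1 without control 1 or 2 or exposed 1 or 3. A p above the threshold does not show that the other 23 genes were unchanged. Calls lost when 1 array was left out were those of Itga8 (−0.70 to −0.59 without control 1 or 2 or exposed 1 or 3) and Pgm5 (−0.58 to −0.45 without control 1, 2 or 3 or exposed 1 or 3).

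Among 21 regulators of the smooth muscle state, 0 were higher and 7 lower, with a median of −0.42. Foxf1, a forkhead factor of visceral and vascular mesenchyme, fell by 1.68, from 2.94, 2.39 and 2.63 to 0.97, 1.25 and 0.69. Heyl (−1.27) and Notch3 (−1.17), of the Notch pathway of mural cells, fell together with Mef2c (−0.85), Srf (−0.74), Foxc1 (−0.67) and Hdac9 (−0.62). The count was 3 without control 1 or 2, 4 without exposed 1 and 2 without array 3. Leaving out single arrays ended the calls of Heyl (−1.11 to −1.06 without control 1 or exposed 3), Notch3 (−1.24 to −0.76 without control 1, 2 or 3 or exposed 1 or 3), Srf (−0.79 to −0.63 without control 1, 2 or 3 or exposed 1 or 3) and Foxc1 (−0.66 to −0.50 without control 1 or 2 or exposed 3). Left-out arrays ended the call of Hdac9 (−0.70 to −0.56 without control 1, 2 or 3 or exposed 1, 2 or 3).

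The cytoskeleton of migrating cells rose, with 22 of 32 genes higher and 1 lower and a median of 0.79. S100a4, a calcium-binding protein of motile cells, went from 6.29, 6.44 and 6.35 to 8.28, 7.97 and 8.46 (log2 change 1.88, SE 0.21, adjusted p = 4.19e-05), and every exposed array lay above every control. The tubulins Tubb2b (1.94), Tubb6 (1.76) and Tubb2a (1.52), the membrane scaffold Anxa2 (1.25) and Tmsb10 (1.21), which sequesters actin monomers, passed too. The cytoplasmic actins Actb (0.18) and Actg1 (0.27), the members of highest level, did not. Zyx, a protein of focal adhesions, was the member that fell, from 7.30, 7.07 and 7.34 to 6.59, 7.08 and 6.33, with array 2 inside the control range (−0.57, SE 0.20, adjusted p = 0.0406). Without 1 array, the call of Zyx (−0.54 to −0.40 without control 1 or 3 or exposed 1 or 3) was lost.

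Receptors and channels that set vessel tone had 11 of 36 members lower (30.6%) and 5 higher, with a median of −0.43. The share of higher members, 13.9%, was under the 14.3% over all genes. The genes that rose were Edn1, endothelin 1 (2.12), the endothelin receptor Ednrb (1.17), the serotonin receptor Htr2b (1.96), the nucleotide receptor P2ry6 (0.68) and Casq2, a calcium store protein (at least 3.31-fold). Edn1 stood at 0.62, 0.91 and −0.43 in controls and at 2.16, 2.70 and 2.58 with salt plus infusion, with no overlap (SE 0.47, adjusted p = 3.58e-03). Gucy1a1, a chain of the nitric oxide receptor guanylate cyclase, went from 4.97, 5.03 and 4.56 to 3.13, 3.60 and 2.88 (log2 change −1.65, SE 0.32, adjusted p = 1.22e-03). Its partner chain Gucy1b1 (−0.82) and Prkg1 (−0.99), the kinase that cyclic GMP activates, fell as well. Further falls were those of the vasopressin receptor Avpr1a (−2.15), the prostaglandin receptors Ptgfr (−1.83), Ptgir (−0.61) and Ptger3, not well above background on exposed arrays, and the channel subunits Abcc9 (−0.84), Cacna1h (−0.69) and Kcnma1 (−0.52). Without exposed 3, 6 were lower. Avpr1a was well above background on 1 exposed array and Htr2b on 1 control and 2 exposed arrays, and with normexp both calls were lost (−0.52 and 0.38) and Ptgfr fell by 1.04. Sensitive to 1 array were the calls of Htr2b (1.40 to 1.80 without control 1 or 3 or exposed 3), Ptger3 (without exposed 3), Ptgir (−0.56 without control 2 or exposed 3) and Abcc9 (−0.81 to −0.57 without control 1 or 3 or exposed 3). The calls of Cacna1h (−0.64 to −0.45 without control 2 or 3 or exposed 2 or 3) and Kcnma1 (−0.57 to −0.43 without control 1 or 2 or exposed 1, 2 or 3) were lost with 1 array left out.

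In the renin-angiotensin and mineralocorticoid list of 16 genes, 1 rose and 4 fell. Agtr1b, an angiotensin type 1 receptor, rose by 1.14, from −3.24, −3.24 and −3.46 to −1.70, −2.63 and −2.18, while its close paralogue Agtr1a did not pass (−0.44, adjusted p = 0.194); whether one probe also reads the other gene was not tested. The genes that fell were the mineralocorticoid receptor Nr3c2 (−1.36), the G protein regulator Rgs2 (−0.95), the aminopeptidase Anpep (−0.72) and the glucocorticoid receptor Nr3c1 (−0.55). Of 22 genes of osmotic response and sodium transport, 3 rose, among them the chaperone Hspa4l (0.98) and the water channel Aqp1 (1.03). Scnn1a, a subunit of the epithelial sodium channel, fell from −2.55, −2.52 and −2.72 to −4.42, −3.60 and −3.63 (−1.29, SE 0.18, adjusted p = 1.43e-04, or −0.37 with normexp), with 2 exposed arrays well above background, and the ubiquitin ligase Nedd4l by 0.32. So 13.6% of the osmotic list was higher and 9.09% lower, both under the shares of 14.3% and 13.9% over all genes. Calls lost when 1 array was left out were those of Nr3c2 (−1.44 to −1.04 without control 1, 2 or 3 or exposed 3), Anpep (−0.68 to −0.64 without control 2 or exposed 2), Nr3c1 (−0.47 without exposed 3) and Nedd4l (−0.34 to −0.23 without control 1 or 2 or exposed 1 or 3).

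Growth factors were higher more often than lower, 12 of 34 against 2, with a median of 0.20. Igf1, insulin-like growth factor 1, went from 1.82, 2.18 and 2.53 to 5.13, 4.50 and 5.17, and both it (log2 change 2.75) and its binding protein Igfbp2 had no overlap between the groups. The neurotrophin Bdnf (1.65), the epidermal growth factor family member Ereg (2.12), the stress cytokine Gdf15 (1.94) and the platelet-derived growth factor chain Pdgfa (0.63) rose too, although the call of Pdgfa was lost with quantile normalisation (0.37), normexp (0.34) and the authors' values (0.36). Another binding protein, Igfbp5 (−1.33), and the neurotrophin Ntf3 (−1.14) fell. In the TGF-β and BMP pathways 9 of 35 rose and 6 fell, or 7 and 3 without exposed 1 and 6 and 3 without array 3. Fst, which traps activins, rose by 2.14 and Inhba, an activin chain, by 0.94, while Tgfbr3, the coreceptor betaglycan, fell by 1.56.

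Of 15 genes of the circadian clock 0 were higher and 6 lower, with a median of −0.80. Nr1d1, the repressor REV-ERBα, went from 3.14, 2.99 and 3.17 to 1.34, 1.99 and 0.17 (log2 change −1.93, SE 0.38, adjusted p = 1.54e-03), without overlap. Dbp, an output factor of the clock, went from 6.70, 7.02 and 6.84 to 5.75, 6.14 and 2.65, so that array 3 set most of its fall (−2.01, adjusted p = 0.0491). The list stood at −0.59, −0.37 and −1.48 on the exposed arrays, and 2 members were lower without array 3 or without any 1 of the controls. The hour of tissue collection is not in the labels, and its part in these values was not tested. Per2 (−1.02), Per3 (−1.40), Arntl (0.94) and Nfil3 (1.57) did not pass. Without exposed 2, Per2 (−1.55, adjusted p = 0.0338), Per3 (−1.92, adjusted p = 0.0431) and Nfil3 (2.02, adjusted p = 0.026) did, and the list had 8 lower and 1 higher. Leaving out single arrays ended the call of Dbp (−2.08 to −0.91 without control 1, 2 or 3 or exposed 3).

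Hox genes, which mark position along the body axis, had 0 of 21 higher and 7 lower, with a median of −0.22. Hoxa7 went from 3.14, 2.99 and 3.05 to 2.26, 1.99 and 2.17, a fall of 0.92 on the log2 scale without overlap, and Hoxb5 (−0.80), Hoxb4 (−0.77), Hoxc4 (−0.72), Hoxa2 (−0.66), Hoxb3 (−0.65) and Hoxb6 (−0.49) were the others. The count was 4 without control 1 or exposed 1. Among metabolic genes, oxidative phosphorylation had 5 of 44 members higher (11.4%) and 1 lower (2.27%). The citrate cycle had 2 of 19 higher and 2 lower (10.5% each). These shares were under those over all genes. Glycolytic and hypoxia genes had 9 of 27 higher (33.3%) and 5 lower (18.5%), with the lactate transporter Slc16a3 (1.50) and phosphoglycerate kinase Pgk1 (1.40) among the higher. Slc16a3 went from 2.39, 2.49 and 2.58 to 3.92, 4.06 and 3.99 (adjusted p = 6.12e-05), every exposed array above every control. Fatty acid oxidation genes had 1 of 26 higher, the carnitine carrier Slc25a20 (1.01), and 8 lower, with Fabp3, which carries fatty acids (−1.47), and Ech1 (−0.79) among them. Without control 1 or 2 or exposed 1 or 3, 5 were lower. Left-out arrays ended the calls of Hoxb5 (−0.70 to −0.66 without control 1 or exposed 1 or 3), Hoxc4 (−0.72 to −0.67 without control 1 or exposed 1), Hoxa2 (−0.69 to −0.64 without control 1, 2 or 3 or exposed 1 or 3) and Slc25a20 (0.78 to 1.01 without control 1 or 3 or exposed 1 or 3).

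Marker genes of cell types moved as well, and how far they account for the values above was not tested. Smooth muscle markers show that the labelled tissue is in the arrays, with Acta2 and Myl9 well above background on all 6. Of 30 macrophage and monocyte markers 16 were higher and 2 lower, with a median of 0.99, array medians of 0.99, 0.58 and 1.13 and control medians of −0.33, 0.12 and 0.20. Lgals3, galectin 3, rose by 2.43, from 2.70, 3.19 and 3.11 to 5.23, 5.25 and 5.82, and Lyve1 rose by 0.98. The 2 markers that fell were Apoe (−0.78) and Gpnmb (−1.63). Gpnmb was well above background on 2 exposed arrays and lost its call with normexp (−0.60). The count of higher markers was 9 without control 1 or exposed 1 or 3. Neutrophil markers had 6 of 14 higher and 0 lower, with a median of 2.06, or 1.14 with dim members at their bound, and 2 were higher without exposed 3 and 3 without control 1 or 2. The CC chemokine list had risen as well (12 of 21 higher). Without 1 array, the call of Gpnmb (−1.64 to −1.37 without control 2 or 3 or exposed 1 or 3) was lost.

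Fibroblast markers had 1 of 19 higher, Mfap5 (0.37, or 0.12 and not past the threshold with quantile normalisation, normexp and the authors' values), and 11 lower, with a median of −0.83. Dcn, decorin, went from 8.60, 8.88 and 8.73 to 8.08, 7.58 and 7.84 (log2 change −0.91, SE 0.14, adjusted p = 2.64e-04), Fbln1 fell by 1.81 and Igfbp6 by 1.11, with no overlap in Dcn or Fbln1. The count of lower markers was 7 without control 2. White adipocyte markers had 0 of 20 higher and 6 lower, with a median of −0.88 and array medians of −0.72, −0.58 and −1.15, and 1 was lower without exposed 3 and 2 without control 3. Slc2a4, the insulin-dependent glucose transporter, fell by 1.62 and Lpl, lipoprotein lipase, by 0.90. Endothelial markers had 2 of 15 higher, the cadherin Cdh5 (0.99) and the sialomucin Emcn (2.04), and 0 lower, with a median of 0.19. Sensitive to 1 array were the calls of Mfap5 (0.36 to 0.37 without control 1 or 2 or exposed 1 or 3), Slc2a4 (−1.27 without exposed 3), Lpl (−0.73 without exposed 3) and Cdh5 (0.74 to 1.13 without control 1, 2 or 3 or exposed 1 or 3).

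T cell and thymocyte markers spread widely among the controls, with medians of −0.01, −1.31 and 1.27, so the 4 of 19 that were lower, Ptcra, Cd6, Cd5 and Cd28, rest on uneven controls. The call of Ptcra was lost with normexp, that of Cd6 with the mean of its probes (−0.26) and that of Cd5 with normexp (−0.64) and quantile normalisation (−1.19). Without control 2 the count was 11, without control 3 or 1 or exposed 3 it was 2, and the list median ranged from −1.75 to −0.49 over the alternatives. Erythroid markers spread from −1.82 to 1.44 in controls and stood at 1.88, 2.26 and −3.33 on exposed arrays. Mesothelial markers had control medians of −1.10, 0.96 and 0.14 and 0 of 12 called. Markers of tissue outside the media thus differed from array to array within a group, and their part in the falls listed above was not tested. The calls of Cd5 (−1.22 to −0.71 without control 1 or 3 or exposed 3) and Cd28 (−0.67 to −0.50 without control 1 or 3 or exposed 3) were lost with 1 array left out.

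The same controls served for infusion alone and for salt alone, so those changes are set beside the changes above without a count of what they share. The median change of the mitosis list was 3.92 with salt plus infusion, 3.87 with infusion alone and −0.04 with salt alone. The corresponding medians were 1.25, 0.71 and −0.20 for cholesterol synthesis, 0.73, 0.54 and −0.07 for the secretory pathway, 0.79, 0.53 and −0.07 for the migrating cytoskeleton and −0.80, −0.63 and 0.37 for the clock. Infusion-alone array 3 lay near the controls in the cholesterol, secretory and clock lists. Its cholesterol median was 0.04 against 0.98 and 1.09 on arrays 1 and 2, its secretory median 0.04 against 0.84 and 0.69, and its clock median −0.02 against −0.76 and −1.03.

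The difference between salt plus infusion and infusion alone was tested directly, which asks what the salt added. It was past the threshold for 0 of 23359 genes (0%, limma), and 1365 genes had an unadjusted p under 0.05. The smallest adjusted p was 0.0686. Slide and treatment were largely confounded here, because 2 of the 3 salt-plus-infusion arrays and all infusion-alone arrays came from different slides. A fixed block for slide therefore sets only exposed 3 against the infusion-alone arrays. With slide as a fixed block 11 genes passed, and 16 did without exposed 3. Gna14, a G protein subunit, had the smallest p among genes that were higher with salt and carry a RefSeq symbol, a difference of 0.88 (SE 0.18, adjusted p = 0.405). The calls absent here do not show that salt added nothing.

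**Figure D3:**
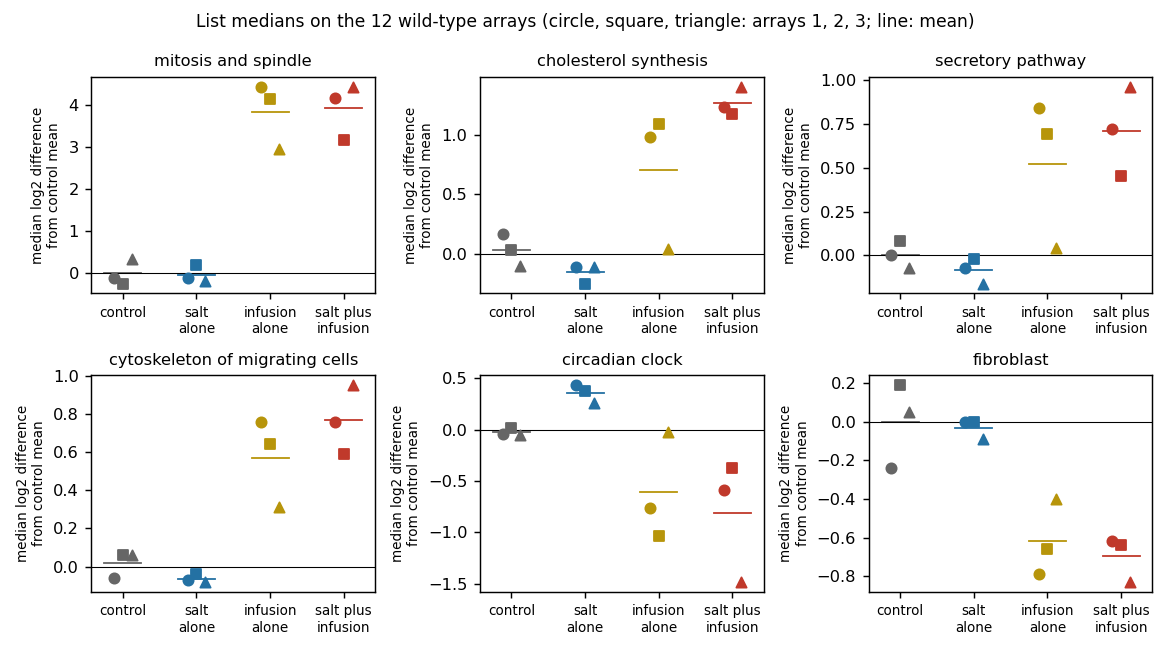
List medians on the 12 wild-type arrays, in 6 panels, as the median over a list of the log2 level minus the mean of the 3 control arrays; points are arrays, lines are group means, and the groups are control, salt, infusion and salt plus infusion. Infusion-alone array 3 lies near the control arrays for cholesterol synthesis (0.04) and the clock (−0.02), where infusion-alone arrays 1 and 2 lie apart.

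The series also exposed IL-17 knockout mice on the same strain to salt plus infusion, with knockout controls of their own, 3 arrays against 3. The labels do not say which IL-17 gene was deleted. The change in the wild type was compared with that in the knockout by an interaction contrast. An unadjusted p under 0.05 was reached by 1437 of 23359 genes, and 5 (0.0214%) differed past the threshold (limma). For all 5 the wild-type change minus the knockout change was negative. The count was 1360 with slide as a fixed block and between 0 and 10 with 1 array left out, falling to 0 without any 1 of the wild-type controls or without knockout control 2. No slide held both genotypes, so a difference between knockout and wild-type levels cannot be told apart from a difference between slides, and the knockout's controls and exposed arrays lay on different slides. The slide block in the knockout rested on 1 array, array 3 of knockout mice with infusion alone. Its mitosis median was 2.16, against 4.66 and 4.75 on arrays 1 and 2 of that group. The count of 1360 can therefore not be read as genes that differ by genotype.

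Stard3, which tethers late endosomes to the endoplasmic reticulum and moves cholesterol between them (probe at mm9 chromosome 11, 98242252 to 98242311), was lower with salt plus infusion in the wild type and higher in the knockout. Its wild-type levels went from 2.79, 2.82 and 2.76 to 2.19, 2.02 and 2.16, and its knockout levels from 1.84, 2.16 and 2.09 to 2.56, 2.47 and 2.40. Neither genotype's groups overlapped, and the changes of −0.67 and 0.44 differed by −1.11 (SE 0.16, adjusted p = 0.0188). The other gene with a RefSeq symbol was the predicted gene Gm9706, which changed by 0.27 in the wild type and 2.54 in the knockout, a difference of −2.28 (SE 0.36, adjusted p = 0.0266). The remaining 3 were probes without a RefSeq symbol.

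Of the 23 cholesterol genes 0 passed this test, although the list medians were 1.25 in the wild type and 0.31 in the knockout. The knockout arrays stood at 0.21, −0.01 and 0.74 above their own controls, and all 3 lay under the lowest wild-type exposed array (1.17). These knockout arrays came from another slide than their controls. With infusion alone the knockout stood at 0.91, 0.62 and 1.17 and the wild type at 0.98, 1.09 and 0.04. Fdps had a log2 change of 3.28 in the wild type and 1.33 in the knockout, a difference of 1.95 (SE 0.64, adjusted p = 0.535). Its knockout controls, at 3.97, 4.05 and 4.04, stood where the exposed wild-type arrays did. Hmgcs1 went from 4.63, 4.42 and 4.53 to 4.60, 4.09 and 4.94 in the knockout, a change of 0.02 against 1.36 (difference 1.34, SE 0.39, adjusted p = 0.403), and Stard4 differed by 0.95 (SE 0.25, adjusted p = 0.377). Bmp4, a bone morphogenetic protein, had a change of 1.29 in the wild type and 0.08 in the knockout (difference 1.22, SE 0.26, adjusted p = 0.119). In the mitosis list, by comparison, the knockout arrays stood at 4.65, 3.79 and 4.06 and the wild-type arrays at 4.15, 3.16 and 4.42.

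**Figure D4:**
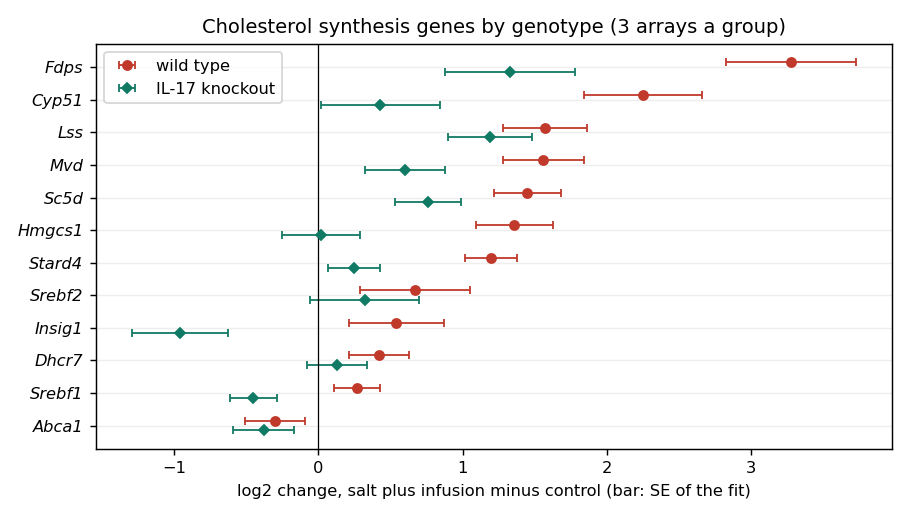
Log2 change of the 12 cholesterol genes named in the text with salt plus infusion against controls of the same genotype, wild type in red and knockout in green, with bars of 1 SE. Fdps lies at 3.28 in the wild type and 1.33 in the knockout and Hmgcs1 at 1.36 and 0.02, and none of the differences was past the threshold.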

How the data were processed

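RNA labelled per the labels as aorta was hybridised with Cy3 to one-colour Agilent arrays, 24 arrays in 8 groups of 3, of which the 6 arrays compared here form 2 groups. The deposited scanner files hold processed signal intensity, background-subtracted and detrended within each array per the file headers and not normalised between arrays. The submitters' processing notes name Agilent Feature Extraction 9.5.1.1, while the deposited file headers give 10.7.1.1. The authors' deposited table of processed values, used as an alternative, has the same median (30.982) on every array.

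From 59305 spots, control spots and 2910 outlier flags over 24 arrays were left out and spots averaged to 55681 probes. Each array's 75th percentile (245.8 to 379.8 on the 6 arrays) was subtracted on the log2 scale. Probes had to pass the scanner's call of well above background on each of the 3 arrays of some group, which left 33377 probes and 23359 genes, each read by its brightest probe. Of these genes 16050 carried a RefSeq symbol and 7309 only a database name. Probes were named by accession (27325), symbol (3523) or synonym (551) through RefSeq, or kept the name in the file (24282). Several probes read 6706 genes, and for 51 of these, none named here, probes were called in opposite directions, and 38 genes lacked a value on some array. Promoters were matched by symbol.

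One limma fit over all 24 arrays gave every contrast, with one shared spread and Benjamini-Hochberg adjustment over all genes at 0.05 (R 4.3.3, limma 3.58.1, Python 3.11.15, pandas 2.3.3). The number of arrays limits the precision. The comparison and the gene lists were chosen with earlier results of these data known. Named genes were the 15 largest changes in each direction without overlap between groups, the 12 largest bounds in each direction, the 6 smallest p-values and 2 highest levels of each list with all called members where a list had 5 or fewer, the 8 smallest p-values of each sign in the other contrasts, and Il17a, Il17f, Lox, Eln, Acta2, Agtr1a, Il6, Ccl2 and Thbs1. Not all of these are reported here, and a few others were chosen after their values were seen. On simulated data with 200 of 23321 genes changed, the fit recovered 10%, 60%, 92% and 96% of changes of 0.5, 1, 2 and 3 on the log2 scale, with 11 false calls, for salt plus infusion against control. The simulation changed a far smaller share of genes than was called here and drew noise independently for each array. Its rates need therefore not hold for these data. Alternatives changed the normalisation, background correction, source of values, filter, probe rule, prior variance, slide, pairing, fitted arrays and left-out arrays.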

Additional observations from a re-analysis of the deposited data

Results flagged for a closer look

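Genes are listed here because the change with salt plus infusion differed between the genotypes in the test of that difference (limma, adjusted p under 0.05). For Stard3 the wild-type change minus the knockout change was −1.11. The predicted gene Gm9706 had a difference of −2.28. A probe without a RefSeq symbol changed by 0.13 in the wild type and 2.77 in the knockout, a difference of −2.64. Another changed by −0.34 and 1.46, a difference of −1.81, and the third by 0.08 and 3.31, a difference of −3.23. The knockout's controls and exposed arrays came from different slides, and the part of slide in these values was not tested gene by gene.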

How the results depend on the processing

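The count for salt plus infusion against control (6578) stayed within 1.5 times under every alternative, from 4930 when other groups were left out of the fit to 7244 with normexp background correction, apart from leaving out arrays (3780 to 7237). It fell to 4371 without control 1 and to 3780 without exposed 3. None of 237 called genes named in the text turned direction under any of the 18 alternatives in which it was measured. With slide as a fixed block, where the change equals that from arrays 1 and 2 alone, 37 of 237 calls were lost. Leaving other groups out of the fit lost 33 of these, no filter on dim probes 25, 1 slide 24, slide as a random block 14, normexp 11, the replicate block 8, the mean of probes 7, and quantile normalisation and the authors' values 6 each. Normexp moved 48 of the 237 changes by over 1.5 times. The genotype difference (5 genes) gave 12 with quantile normalisation and with the authors' values, 9 with normexp, 14 with the strictest filter, 1360 with slide as a fixed block, 10 as a random block, 24 when other groups were left out and 0 to 10 with 1 array left out. The slide term behind the 1360 rested on 1 knockout array, and the genotype difference could not be fitted within 1 slide. The difference from infusion alone (0 genes) gave 4 with no filter on dim probes, 11 with slide as a fixed block and 0 to 16 with 1 array left out. Deviations from the group mean correlated at r = −0.121, −0.215 and −0.064 between same-numbered arrays of the compared groups. Between differently numbered arrays r ran from −0.165 to 0.272. With 3 arrays in each group these values cannot decide whether the numbers pair the arrays. The replicate block gave 6258, 5 and 0. Signal over background limits what can be read of dim genes, for which bounds are given.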

Other observations

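Genes of vessel growth and endothelial activation had 11 of 24 members higher and 1 lower with salt plus infusion, with a median log2 change of 0.79. Pgf, placental growth factor, went from −1.57, −1.88 and −1.77 to 0.12, 0.24 and 0.38 (log2 change 1.98, SE 0.27, adjusted p = 1.04e-04), and the groups did not overlap. The leukocyte adhesion molecules Vcam1 (1.20) and Sele (at least 3.59-fold) rose, as did the guidance receptors Unc5b (0.99) and Nrp2 (1.04), while the Tie2 ligand Angpt2 fell (−0.89). Without exposed 3 the count of higher genes was 7. CXC chemokines and their receptors had 7 of 16 members higher and 0 lower, with a median of 0.68. Cxcl10, which draws activated T cells, went from −2.62, −4.29 and −3.67 to 0.03, 0.94 and −0.24, Cxcl14 was at least 9.46-fold higher and the scavenger receptor ligand Cxcl16 rose by 1.06. The count was 3 without control 1 or 3 or exposed 3 and 4 without exposed 1. Without 1 array, the call of Angpt2 (−0.93 to −0.77 without control 1 or 2 or exposed 1, 2 or 3) was lost.

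Basement membrane genes moved in both directions, 8 of 21 higher and 4 lower, with a median of 0.29. Nid2, a nidogen that links laminin to collagen IV, went from −1.62, −1.01 and −1.49 to 0.58, 0.20 and 0.81 (log2 change 1.91, SE 0.31, adjusted p = 3.58e-04), and the laminin chain Lamc1 (0.65) rose. The genes that fell were the collagen IV chains Col4a6 (−0.98) and Col4a4 (−0.86) and the laminin chains Lamb2 (−0.75) and Lama2 (−0.58). With 1 array left out the counts ranged from 5 to 8 higher and from 0 to 6 lower, with 0 lower without control 1 or exposed 3, and 5 were higher without control 2. Integrins, which bind cells to matrix, had 4 of 16 higher, Itga5 (1.20), Itgb7 (1.27), Itga4 (0.85) and Itgb1 (0.83), and 1 lower, Itga10 (−0.97). This list leaves out Itga8, which is counted with the contractile genes. The call of Itgb7 was lost with normexp (0.83). Sensitive to 1 array were the calls of Col4a6 (−1.05 to −0.67 without control 1, 2 or 3 or exposed 1 or 3), Col4a4 (−0.92 to −0.56 without control 1 or 2 or exposed 1 or 3), Lamb2 (−0.80 to −0.58 without control 1, 2 or 3 or exposed 1 or 3) and Lama2 (−0.55 to −0.40 without control 1 or exposed 3). The calls of Itgb7 (1.10 to 1.40 without control 1, 2 or 3 or exposed 1, 2 or 3) and Itga10 (−0.86 to −0.83 without control 1 or exposed 3) were lost with 1 array left out.

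Ribosome assembly genes had 9 of 25 members higher and 0 lower, with a median of 0.48, and 3 were higher without exposed 3. Myc, the factor that drives growth genes, went from −2.88, −2.60 and −2.55 to −0.64, −0.75 and 0.65, with array 3 the highest (log2 change 2.43, SE 0.43, adjusted p = 7.47e-04). Bop1 (1.11) and Ddx21 (1.42), which process ribosomal RNA, rose too. Of 22 immediate early genes, which cells switch on within minutes of a stimulus, 4 were higher and 0 lower. That is 18.2% higher, near the 14.3% over all genes. The exposed arrays had list medians of 0.06, −0.12 and 1.28, so only array 3, from the other slide, stood clearly above the controls. With slide as a fixed block the median was −0.09, with 3 members higher and 2 lower. The 4 higher genes were Rcan1, an inhibitor of calcineurin (2.24), Maff (1.52), Egr2 (1.52) and Fosl1 (at least 6.18-fold). Genes of the NADPH oxidases and of antioxidant defence had 7 of 27 higher and 3 lower. Ncf1, a subunit of the phagocyte oxidase, went from −1.81, −1.48 and −1.57 to 0.19, −0.37 and 0.06 (1.59), while Nox4, the oxidase of smooth muscle and fibroblasts (−0.83), Noxo1 (−1.89) and Nqo1 (−0.58) fell. The count of higher genes was 2 without control 1 or exposed 3 and 4 without exposed 1, and that of lower genes was 0 without exposed 3 and 1 without control 1 or 2 or exposed 1. Glucocorticoid target genes had 1 of 14 higher, Ddit4 (1.23), and 5 lower, Klf15 (−2.32), Sult1a1 (−1.44), Hif3a (−1.17), Cdkn1c (−1.12) and Arrdc2 (−0.66). When other groups were left out of the fit Arrdc2 did not pass. Of these 5 calls, 2 were kept without exposed 3 and 3 without exposed 1 or any 1 of the controls. Calls lost when 1 array was left out were those of Egr2 (0.98 to 1.61 without control 1, 2 or 3 or exposed 1 or 3), Nox4 (−0.86 to −0.54 without control 1 or 2 or exposed 1 or 3), Noxo1 (−1.44 without exposed 3) and Nqo1 (−0.55 to −0.51 without control 1 or 2 or exposed 1 or 3). Leaving out single arrays ended the calls of Klf15 (−1.68 without exposed 3), Sult1a1 (−1.59 to −0.81 without control 1, 2 or 3 or exposed 1 or 3) and Hif3a (−1.24 to −0.57 without control 1, 2 or 3 or exposed 1 or 3).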
